A study of Mus musculus with 23 samples.

Results

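The 10 genes of the circadian clock, namely Per1, Per2, Per3, Cry1, Cry2, Clock, Bhlhe40, Nr1d1, Nr1d2 and Dbp, were followed in the nucleus accumbens of mice 1 h after an injection of cocaine or saline. The array held 19 probes annotated to these 10 genes, and 12 of them, for 9 genes, were kept because their detection p-value was under 0.01 on at least 5 arrays. Over the whole array 18509 of 45281 probes, for 10138 genes, passed the same filter. The single Cry1 probe was detected on 0 arrays, so Cry1 is not described further. Of the other 6 probes left out, 4 were detected on 0 arrays and 1 each for Per2 and Per3 on 1 array. Of the 12 probes kept, 11 were detected on all 23 arrays, and the Nr1d1 probe was detected on 20.

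The tissue was punched from the nucleus accumbens, which forms the ventral striatum, of C57BL6 mice, and the sources used here do not state their age. The 4 groups were 6 heterozygotes (HET, Foxp2 S321X/+) given cocaine, 5 HET mice given saline, 6 wild-type littermates (WT) given cocaine and 6 WT mice given saline, and every injection was intraperitoneal. Cocaine, a blocker of dopamine reuptake, was given once at 15 mg/kg. S321X puts an early stop codon into Foxp2, which encodes a forkhead transcription factor of striatal neurons, and HET animals carry it on 1 of their copies in all tissues rather than in a chosen cell type. Each array measured the RNA of 1 animal, and the number of arrays limits the precision.

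The clock of mammalian cells is a transcriptional feedback loop. CLOCK and its partner BMAL1 activate genes that carry E-box elements, among them the Per and Cry genes, whose proteins return to the nucleus and repress CLOCK and BMAL1. The receptors encoded by Nr1d1 and Nr1d2 repress the gene of BMAL1, Bhlhe40 encodes a repressor that competes at E-boxes, and Dbp is an output gene. Per1 and Bhlhe40 are also known as genes that signals such as cAMP and calcium can induce directly within an hour. The sources used here do not give the time of day of injection or dissection, so no phase of the daily cycle can be assigned to any value.

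Between 16102 and 17933 probes were detected per array, and any 2 arrays had a correlation of 0.967 to 0.991 across tested probes. The 3 Foxp2 probes that passed the filter stood at 0.63 to 0.70 of the WT level in HET mice averaged over both injections, a difference that limma did not call (adjusted p between 0.785 and 1.00). Markers of the labelled tissue were present, since 12 of 15 listed genes of striatal projection neurons passed the filter, Ppp1r1b, Drd1, Drd2 and Penk among them. Of 11 listed genes of cortical excitatory neurons 9 passed as well. The excitatory score, the mean log2 deviation of these 9 genes from all arrays, ranged from -0.21 to 1.08 in HET cocaine, -1.47 to -0.07 in HET saline, -0.35 to 0.62 in WT cocaine and -0.73 to 0.02 in WT saline arrays. The striatal score ranged from -0.75 to 0.03 in HET cocaine, 0.04 to 0.26 in HET saline, -0.30 to 0.19 in WT cocaine and 0.12 to 0.36 in WT saline arrays. Numbers 9, 16 and 19 of the HET cocaine arrays stood apart, with an excitatory score of 0.94 to 1.08 and a striatal one of -0.75 to -0.60. In bulk tissue, fewer cells of a type and less RNA per cell cannot be told apart.

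Cocaine was followed by higher Per1 and Bhlhe40 transcript levels, while the other 7 measured clock genes did not pass the test. Averaged over genotypes, Bhlhe40 was 1.39 times and Per1 1.32 times as high after cocaine as after saline. Dbp stood at 0.86 of its saline level, which did not pass the adjustment over all probes. Thus 2 of 9 clock genes were called, both higher, where 4.45% of all 10138 genes were called, 3.16% higher and 1.29% lower (limma, Benjamini-Hochberg over all probes, adjusted p under 0.05). The count of all genes called, 451, ranged from 255 to 694 when 1 array was left out, and moved by over 1.5 times without HET cocaine array 9, 11, 16 or 19, HET saline array 14 or 18, or WT cocaine array 24. At an unadjusted p under 0.05 the counts were 3 of 9 clock genes and 19.2% of all genes. The median log2 change was 0.04 over the 9 clock genes and -0.01 over all genes, and 5 of the 9 changes were positive against 48.1% of all genes.

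**Figure D1:**
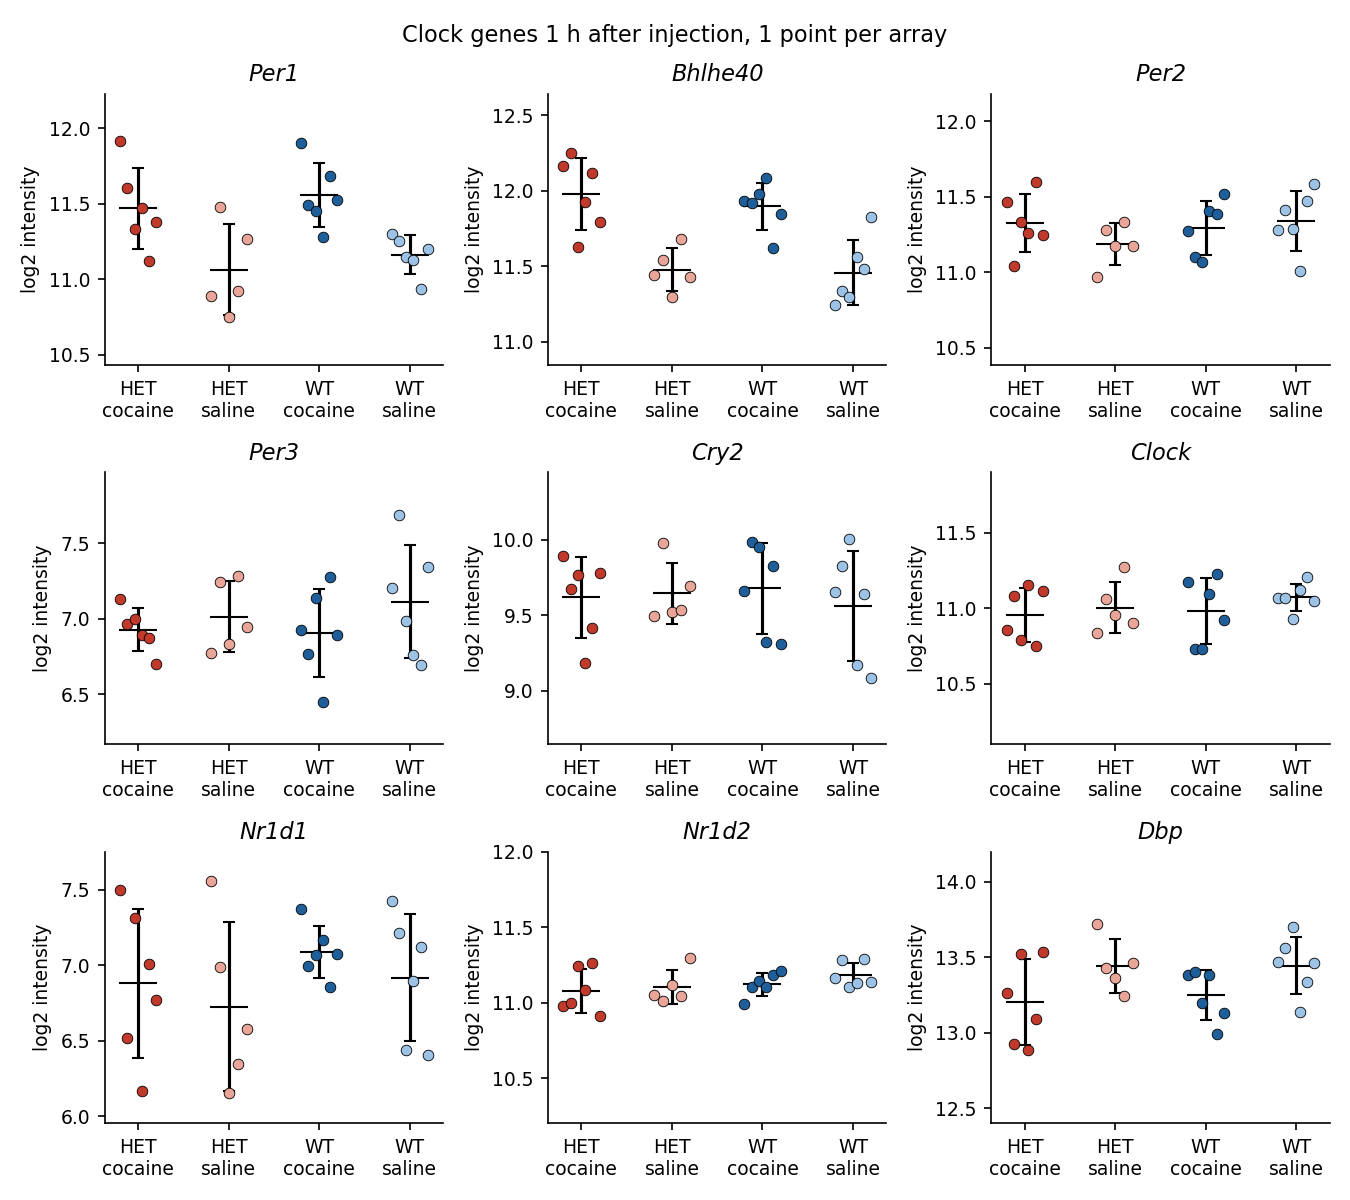
Log2 intensity (y axis) of the 9 measured clock genes on each of the 23 arrays, by group (x axis: HET cocaine, HET saline, WT cocaine, WT saline). Points are single arrays, the horizontal line is the group mean and the bars are 1 SD. In the Per1 and Bhlhe40 panels both cocaine groups lie above both saline groups on average, with overlap of single arrays, and the 5 HET saline Bhlhe40 values (11.30 to 11.68) lie within the range of WT saline.

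Per1, a member of the repressing arm of the loop and the Period gene best known for rapid induction, is shown first with its promoter. RefSeq (build GRCm38.p6) gives it 2 start regions on chromosome 11, within the gene at chr11:69095108-69109965. Each window holds 250 bases before and 50 after a start, on the plus strand. Capitals mark the letters of motifs that a search of both strands found.
Per1 window 1, chr11:69098699-69098998: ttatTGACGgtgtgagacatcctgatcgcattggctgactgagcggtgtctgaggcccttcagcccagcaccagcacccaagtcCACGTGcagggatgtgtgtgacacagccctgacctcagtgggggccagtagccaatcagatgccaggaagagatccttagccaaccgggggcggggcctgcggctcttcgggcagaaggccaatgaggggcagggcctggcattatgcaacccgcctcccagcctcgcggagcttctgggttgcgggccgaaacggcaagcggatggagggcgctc
Per1 window 2, chr11:69099902-69100201: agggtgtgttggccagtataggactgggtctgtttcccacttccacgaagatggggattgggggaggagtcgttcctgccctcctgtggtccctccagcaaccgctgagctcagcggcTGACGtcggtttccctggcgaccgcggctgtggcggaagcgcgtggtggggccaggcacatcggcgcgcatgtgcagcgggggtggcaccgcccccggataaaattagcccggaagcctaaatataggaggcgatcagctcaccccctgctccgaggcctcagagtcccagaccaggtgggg
The first window holds an E-box, CACGTG, 166 bases before the start, and the core TGACG of a cAMP response element 246 bases before it. The second holds TGACG 132 bases before its start. Among 32851 windows of the same length over all genes, 7.15% hold CACGTG, 20.8% hold TGACG and 1.79% hold the full cAMP response element TGACGTCA, which contains TGACG and was not found in either Per1 window. The search also covered the E-box variant CACGTT (4.68% of windows) and the D-box TTATGTAA (0.938%), bound by DBP and its relatives. Genes that were not called held matches too. Cry2 held TGACG 209 and CACGTT 166 bases before its start, Nr1d1 CACGTT 28 bases before, and Per3 TTATGTAA 205 and 158 bases before. The windows of Clock, Nr1d2 and Dbp held none of these motifs, and no window was available for Bhlhe40 or Per2. A match is a description of the letters and says nothing of binding.

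In HET mice Per1 stood at 11.12, 11.43 and 11.91 (lowest, median and highest log2 intensity of 6 arrays) after cocaine, and at 10.75, 10.89, 10.92, 11.27 and 11.48 after saline. In WT mice it stood at 11.28, 11.51 and 11.90 after cocaine and at 10.93, 11.18 and 11.30 after saline. The groups overlapped in both genotypes, and 6 of 12 cocaine arrays lay above all 11 saline arrays, while 11 of 12 lay above the median of the saline arrays. Group means ran from 11.56 ± 0.21 (SD, n = 6) in WT cocaine and 11.47 ± 0.27 (n = 6) in HET cocaine to 11.16 ± 0.13 (n = 6) in WT saline and 11.06 ± 0.30 (n = 5) in HET saline arrays. Neighbours of the same injection in that order differed by less than their SD. The log2 change of Per1 averaged over genotypes was 0.40 ± 0.10 (SE; 95% interval 0.20 to 0.60; adjusted p = 0.0201, limma). The other Per1 probe that was kept gave 0.41 ± 0.10 (adjusted p = 0.0269).

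Bhlhe40 (chr6:108660629-108666925), which encodes the basic helix-loop-helix repressor DEC1, gave the smallest p of the 9 genes and ranked 43 of 10138 genes by p. In HET mice it stood at 11.63, 12.02 and 12.25 after cocaine (lowest, median and highest of 6), and at 11.30, 11.43, 11.44, 11.54 and 11.68 after saline. In WT mice it stood at 11.62, 11.92 and 12.08 after cocaine, against 11.24, 11.41 and 11.83 after saline. All 12 cocaine arrays lay above the median of the saline arrays and 9 of 12 above all of them. WT saline array 20, at 11.83, lay above 3 cocaine arrays. The log2 change was 0.47 ± 0.08 (SE; 95% interval 0.30 to 0.64; adjusted p = 0.00242, limma). With both genotypes pooled, 0 of the 9 clock genes showed no overlap at all, against 0.109% of all genes.

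The remaining members of the repressing arm showed no change that passed the test. Per2, a Period gene whose protein also binds nuclear receptors, stood at 11.04, 11.30 and 11.60 in HET cocaine arrays (lowest, median and highest) and at 10.97 to 11.33 in HET saline arrays. In WT mice it stood at 11.07, 11.33 and 11.52 after cocaine and 11.01, 11.35 and 11.58 after saline. Cocaine and saline arrays overlapped over nearly their whole range. The log2 change of Per2 was 0.05 ± 0.08 (95% interval -0.11 to 0.21), and its other probe gave 0.09 ± 0.09. The interval of Per2 lies below the estimate for Per1, but the difference between the 2 genes was not tested. Per3, the Period gene least needed for rhythm in mice, differed by -0.15 ± 0.11 (-0.38 to 0.08), with group means of 6.93 in HET cocaine, 7.01 in HET saline, 6.91 in WT cocaine and 7.11 in WT saline arrays. Cry2, a cryptochrome that acts with the Period proteins, differed by 0.04 ± 0.12 (-0.20 to 0.29).

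Clock, which encodes the activator, differed by -0.07 ± 0.07 (95% interval -0.22 to 0.08). Its values lay between 10.75 and 11.15 in HET cocaine, 10.84 and 11.27 in HET saline, 10.73 and 11.23 in WT cocaine and 10.93 and 11.20 in WT saline arrays, which overlap. Nr1d2, which encodes the nuclear receptor REV-ERB beta, had an SD within groups of 0.11 on its brightest probe and differed by -0.04 ± 0.05 there (-0.16 to 0.07). Its other probe had an SD of 0.25 and gave -0.07 ± 0.10. Nr1d1, which encodes REV-ERB alpha, had the widest spread of the 12 probes, with an SD within groups of 0.43, and differed by 0.16 ± 0.17 (-0.18 to 0.51). Its probe was detected on 5 of 6 HET cocaine, 4 of 5 HET saline, 6 of 6 WT cocaine and 5 of 6 WT saline arrays.

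Dbp, a PAR-domain leucine zipper factor and an output of the loop, had lower values after cocaine that did not pass the adjustment. In HET mice it stood at 12.88, 13.18 and 13.54 after cocaine, and at 13.24, 13.36, 13.43, 13.46 and 13.72 after saline. In WT mice it stood at 12.99, 13.29 and 13.40 after cocaine and at 13.14, 13.46 and 13.70 after saline. The groups overlapped in both genotypes, with 5 of 12 cocaine arrays below every saline array and 2 of 12 above the saline median. The log2 difference was -0.22 ± 0.09 (SE; 95% interval -0.40 to -0.03; unadjusted p = 0.0216, adjusted p = 0.18, limma).

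**Figure D2:**
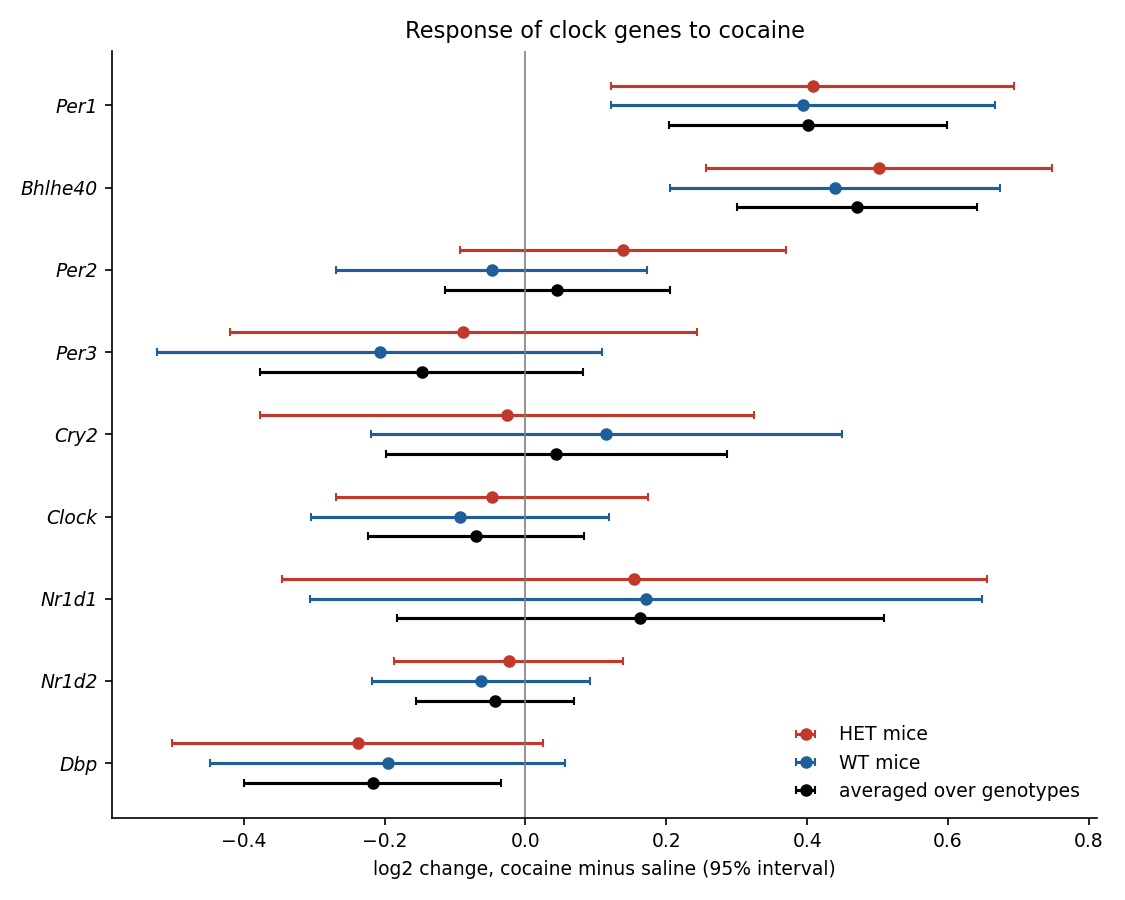
Log2 change, cocaine minus saline (x axis), of the 9 measured clock genes (rows), with 95% intervals, in HET mice, in WT mice and averaged over genotypes. The averaged intervals of Per1 (0.20 to 0.60) and Bhlhe40 (0.30 to 0.64) lie furthest to the right of 0, and the interval of Dbp (-0.40 to -0.03) lies to its left.

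Within each genotype the arrays were fewer. In HET mice Bhlhe40 was called higher, with a log2 change of 0.50 ± 0.12 (adjusted p = 0.0287, limma), so 1 of 9 clock genes passed where 2.68% of all genes did and 1.95% of all genes were called higher. The 272 genes behind that share became 67 to 521 when 1 array was left out, a move of over 1.5 times without HET cocaine array 9, 11, 16 or 19 or HET saline array 14 or 18. At an unadjusted p under 0.05 the counts were 2 of 9 and 16.5%. Per1 differed by 0.41 ± 0.14 in HET mice (adjusted p = 0.126). In WT mice 0 of 9 clock genes were called, where 0.109% of all genes were, and at an unadjusted p under 0.05 the counts were 2 of 9 and 8.58%. Those 2 were Bhlhe40 with 0.44 ± 0.11 (adjusted p = 0.294) and Per1 with 0.39 ± 0.13 (adjusted p = 0.483). The call of Bhlhe40 in HET mice was lost in 6 of 23 fits that each left out 1 array, namely HET saline arrays 1, 14 and 22 and HET cocaine arrays 9, 16 and 19 (adjusted p between 0.0521 and 0.104).

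The cocaine response did not differ detectably between genotypes. Bhlhe40 responded by 0.06 ± 0.16 more in HET than in WT mice (log2; 95% interval -0.28 to 0.40), and Per1 by 0.01 ± 0.19 (-0.38 to 0.41). These intervals reach differences of 0.40 and 0.41, so they do not show that the genotypes respond alike. For this difference 0 of 9 clock genes and 0% of all genes were called, and at an unadjusted p under 0.05 the counts were 0 of 9 and 4.81% (limma). HET against WT levels likewise gave 0 of 9 clock genes and 0% of all genes called, whether averaged over injections, after saline or after cocaine. At an unadjusted p under 0.05 the clock genes numbered 0 in all 3, against 4.73%, 3.71% and 6.65% of all genes. With 1 probe per gene the largest of these differences was that of Nr1d1 in each case, with -0.20 ± 0.17 averaged over injections (95% interval -0.55 to 0.14). After cocaine the other Nr1d2 probe differed by more, at -0.27 ± 0.14 (95% interval -0.56 to 0.02), and did not pass (adjusted p = 0.811).

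Other genes of the clock were read from a list of 28, of which 20 were measured. Wee1, a cell cycle kinase known in mouse liver as a target of CLOCK and BMAL1, rose by 0.47 ± 0.13 (log2, adjusted p = 0.0394), and Rorb, a retinoid-related orphan receptor, by 0.45 ± 0.12 (adjusted p = 0.0411). The remaining 18 did not pass, 0 were lower, and the list's median log2 change was 0.03. Arntl, the gene of BMAL1, differed by 0.06 ± 0.09. Npas2, a forebrain relative of Clock, differed by -0.22 ± 0.16, Tef, a relative of Dbp, by -0.22 ± 0.10, and Id2 by 0.29 ± 0.11, none of which passed (adjusted p = 0.509, 0.251 and 0.162). Wee1 passed in 10 and Rorb in 9 of 23 fits that each left out 1 array, and neither passed with runs of 6 array numbers as a block (0.39 with adjusted p = 0.0981 and 0.38 with adjusted p = 0.123). With the excitatory score as a covariate Wee1 differed by 0.33 ± 0.18 and Rorb by 0.17 ± 0.15, and neither passed (adjusted p = 0.999). The Wee1 probe was not detected on all arrays. With an offset of 50 in place of 16 Wee1 differed by 0.33 ± 0.09 and Rorb by 0.41 ± 0.11, and both passed (adjusted p = 0.0390 and 0.0329, limma).

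For scale, 14 of 17 measured immediate-early genes rose and 0 fell, with a median log2 change of 0.74. Egr2, a zinc-finger factor, rose by 1.94 ± 0.18, Fos, a subunit of AP-1, by 1.44 ± 0.16, and Arc, a synaptic effector, by 1.17 ± 0.12 (adjusted p between 3.63e-06 and 2.51e-05). Per1 and Bhlhe40 thus changed by less than the median immediate-early gene. Of 18 measured glucocorticoid-responsive genes, a list read because Per1 is also a known target of the glucocorticoid receptor, 1 rose and 0 fell, with a median of -0.01. That gene was Cebpb, a leucine zipper factor, with 0.34 ± 0.07 (adjusted p = 0.00744). Cebpb did not pass with the excitatory score (0.24, adjusted p = 0.999) or the striatal score (0.21, adjusted p = 0.999) as a covariate, nor without HET cocaine arrays 9, 16 and 19 (0.29, adjusted p = 0.101). Fkbp5 differed by -0.04 ± 0.08, Sgk1 by -0.11 ± 0.08 and Tsc22d3 by 0.02 ± 0.09, and none of the 3 passed.

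**Figure D3:**
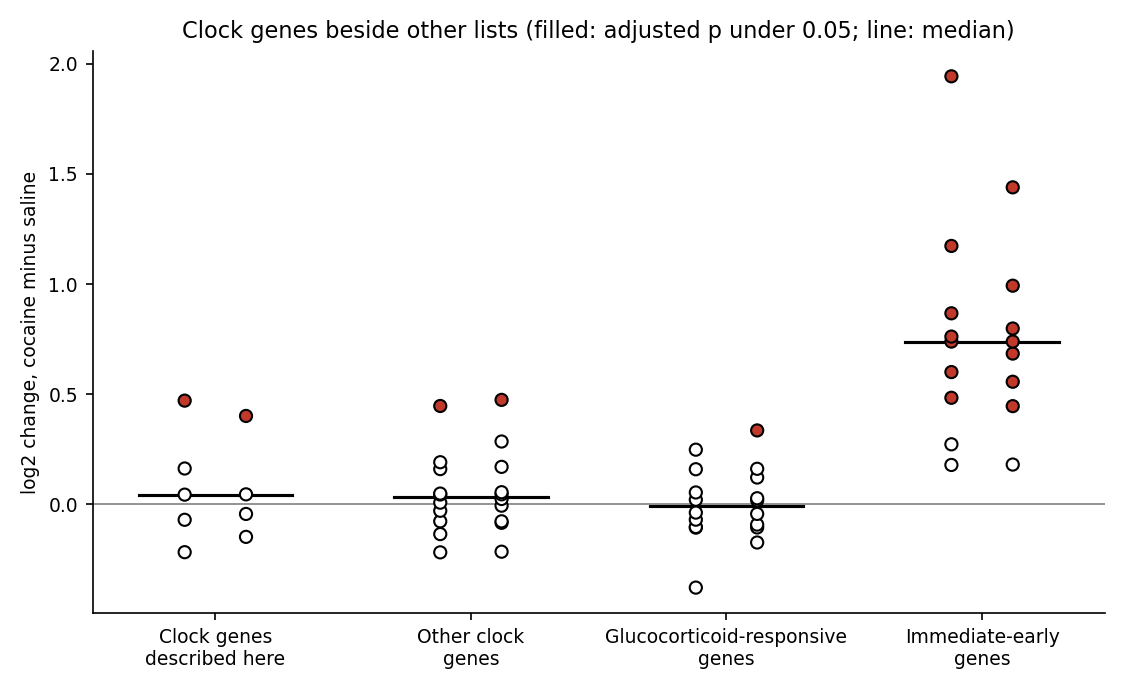
Log2 change, cocaine minus saline averaged over genotypes (y axis), of each measured gene in 4 lists (x axis), offset sideways for legibility. Filled points had an adjusted p under 0.05 and lines are list medians, which lie at 0.04 for the 9 clock genes, 0.03 for 20 other clock genes, -0.01 for 18 glucocorticoid-responsive genes and 0.74 for 17 immediate-early genes.

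The markers of cell types moved with cocaine too. Averaged over genotypes, 6 of the 9 measured excitatory markers were higher and 0 lower after cocaine, and of the 12 striatal markers 10 were lower and 0 higher. In HET mice 5 excitatory markers were called higher and 6 striatal ones lower, with median log2 changes of 1.43 and -0.49. In WT mice 0 of either list were called, with medians of 0.51 and -0.25. The difference of the response between genotypes was called for 0 markers of either list. With the excitatory score as a covariate, Per1 differed by 0.34 ± 0.14, Bhlhe40 by 0.30 ± 0.11 and Dbp by -0.07 ± 0.12 between cocaine and saline (log2, SE), and with the striatal score by 0.44 ± 0.14, 0.33 ± 0.12 and 0.05 ± 0.10. None of these 6 passed (adjusted p = 0.999 in each), and 8 and 5 of all genes were called in these fits. Without HET cocaine arrays 9, 16 and 19, Bhlhe40 differed by 0.41 ± 0.09 (adjusted p = 0.0489), Per1 by 0.44 ± 0.11 (adjusted p = 0.0789) and Dbp by -0.10 ± 0.08 (adjusted p = 0.754), with 49 of all genes called. The difference of Per1 was thus as large without those arrays, that of Bhlhe40 was somewhat smaller, and that of Dbp was less than its value over all arrays by more than 1.5 times. In HET mice alone Bhlhe40 differed by 0.27 ± 0.15 with the excitatory score, 0.31 ± 0.16 with the striatal score and 0.38 ± 0.14 without those arrays, and passed in none of these fits (adjusted p between 0.647 and 1.00). The part of the marker differences in the changes of the clock genes was not tested beyond these fits. Markers of astrocytes, oligodendrocytes, microglia and endothelial cells gave 0 calls in 23 measured genes. Kl, the only measured marker of 5 for choroid plexus, was called lower after cocaine, by 0.46 (adjusted p = 0.0378, limma).

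**Figure D4:**
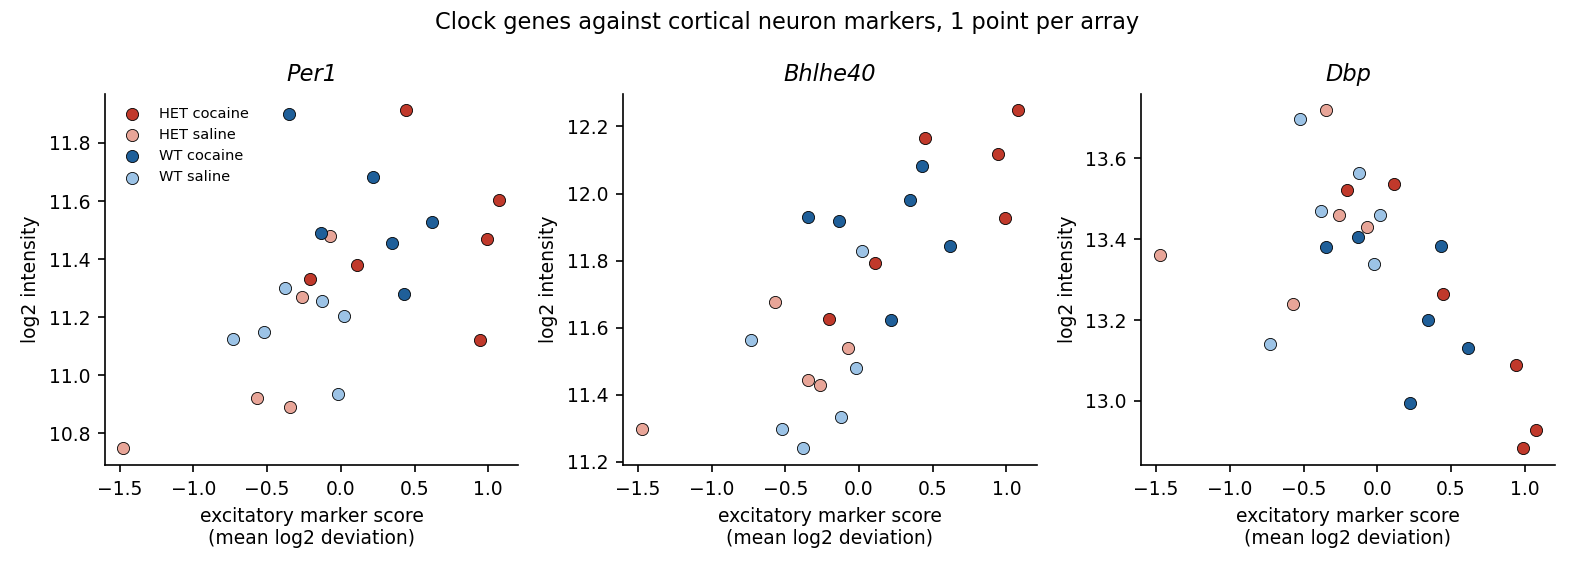
Log2 intensity of Per1, Bhlhe40 and Dbp (y axes) against the excitatory marker score (x axis, mean log2 deviation of 9 genes), 1 point per array, coloured by group. HET cocaine arrays 9, 16 and 19 are the 3 points with scores from 0.94 to 1.08, where Dbp is between 12.88 and 13.09 and Bhlhe40 between 11.93 and 12.25.

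Array numbers ran from 1 to 24 with 8 absent, and each run of 6 successive numbers held both injections. Within the 4 runs Per1 was higher on cocaine arrays by 0.67, 0.32, 0.44 and 0.19, and Bhlhe40 by 0.66, 0.65, 0.50 and 0.22. Dbp differed by -0.22, -0.44, -0.14 and -0.27. All 3 genes kept 1 direction in 4 of 4 runs, which hold 1 to 4 arrays of each injection. So did Per3 (-0.20, -0.02, -0.22 and -0.21) and Nr1d1 (0.14, 0.53, 0.04 and 0.44), which were not called. The share of all genes that keep 1 direction was not computed, and the runs hold the same arrays as the main fit. The sources used here do not say whether a run was a slide.

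Sex was compared in the authors' processed values, whose columns name the animal, for 12 females and 11 males with the 4 groups in the model. Cry2 was lower in females, at -0.36 ± 0.09 (log2, female minus male; 95% interval -0.56 to -0.17; adjusted p = 0.0468, limma), so 1 of 9 clock genes was called where 1.82% of 9274 genes were. The 169 genes behind that share became 50 to 299 when 1 animal was left out, a move of over 1.5 times for 9 animals, with the lowest count without HET saline replicate 1 and the highest without WT cocaine replicate 5. Female and male Cry2 values were 9.12, 9.36 and 9.73 against 9.62, 9.71 and 9.84 in HET cocaine, and 9.47, 9.48 and 9.64 against 9.44 and 9.93 in HET saline animals. In WT cocaine animals they were 9.25, 9.26 and 9.78 against 9.61, 9.91 and 9.94, and in WT saline animals 9.02, 9.11 and 9.59 against 9.60, 9.78 and 9.96. Every group mean was lower in females, by 0.16 to 0.54, and the sexes separated without overlap in WT saline animals and overlapped in the other 3 groups. Such separation was not particular to Cry2. Females lay below all males for Dbp in WT saline, Nr1d1 in HET saline and Per3 in HET cocaine animals. They lay above all males for Per2 in WT cocaine and Bhlhe40 in WT saline animals. The share of all genes that separate in so few animals was not computed. The call passed in 5 of 23 fits that each left out 1 animal (adjusted p between 0.0245 and 0.0821), so it rests close to the threshold.

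A further 3 clock genes reached an unadjusted p under 0.05 for sex, and none passed the adjustment. Nr1d1 differed by -0.44 ± 0.17 (adjusted p = 0.144), Dbp by -0.18 ± 0.08 (adjusted p = 0.228) and Per1 by -0.19 ± 0.09 (adjusted p = 0.244). These make 4 of 9 clock genes at that level, against 19% of all genes, and all 4 were lower in females. Per2, Clock and Bhlhe40 differed by 0.13 ± 0.07, 0.13 ± 0.07 and 0.04 ± 0.08. Of 17 other clock genes measured in these values 0 were called and 3 had an unadjusted p under 0.05, namely Usp2 with -0.23, Fbxw7 with 0.25 and Tef with -0.24. In 3 groups males were replicates 1 to 3 and females 4 to 6, and in HET saline animals males were 1 to 2 and females 3 to 5. Sex and anything that goes with the replicate number thus cannot be told apart. Within each group the arrays and the samples are in the same order, and the clock genes' values match closely in that order. Per1 was 11.91 on HET cocaine array 3 and 11.88 in HET cocaine replicate 1, a male. By that match males are array numbers 1 to 12 and females 13 to 24. Differences called for sex, that of Cry2 among them, therefore cannot be told apart from differences between the early and late array numbers.

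The response to cocaine was not shown to differ by sex. Bhlhe40 responded by 0.35 ± 0.11 in females and 0.59 ± 0.12 in males, a difference of -0.24 ± 0.16 (95% interval -0.57 to 0.10). Per1 responded by 0.38 ± 0.13 in females and 0.41 ± 0.14 in males. Its other probe gave 0.32 ± 0.14 in females and 0.52 ± 0.15 in males, a difference of -0.21 ± 0.20 (95% interval -0.63 to 0.22). For this difference 0 of 9 clock genes and 0% of all genes were called (limma), and at an unadjusted p under 0.05 the counts were 0 of 9 and 6.51%.

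**Figure D5:**
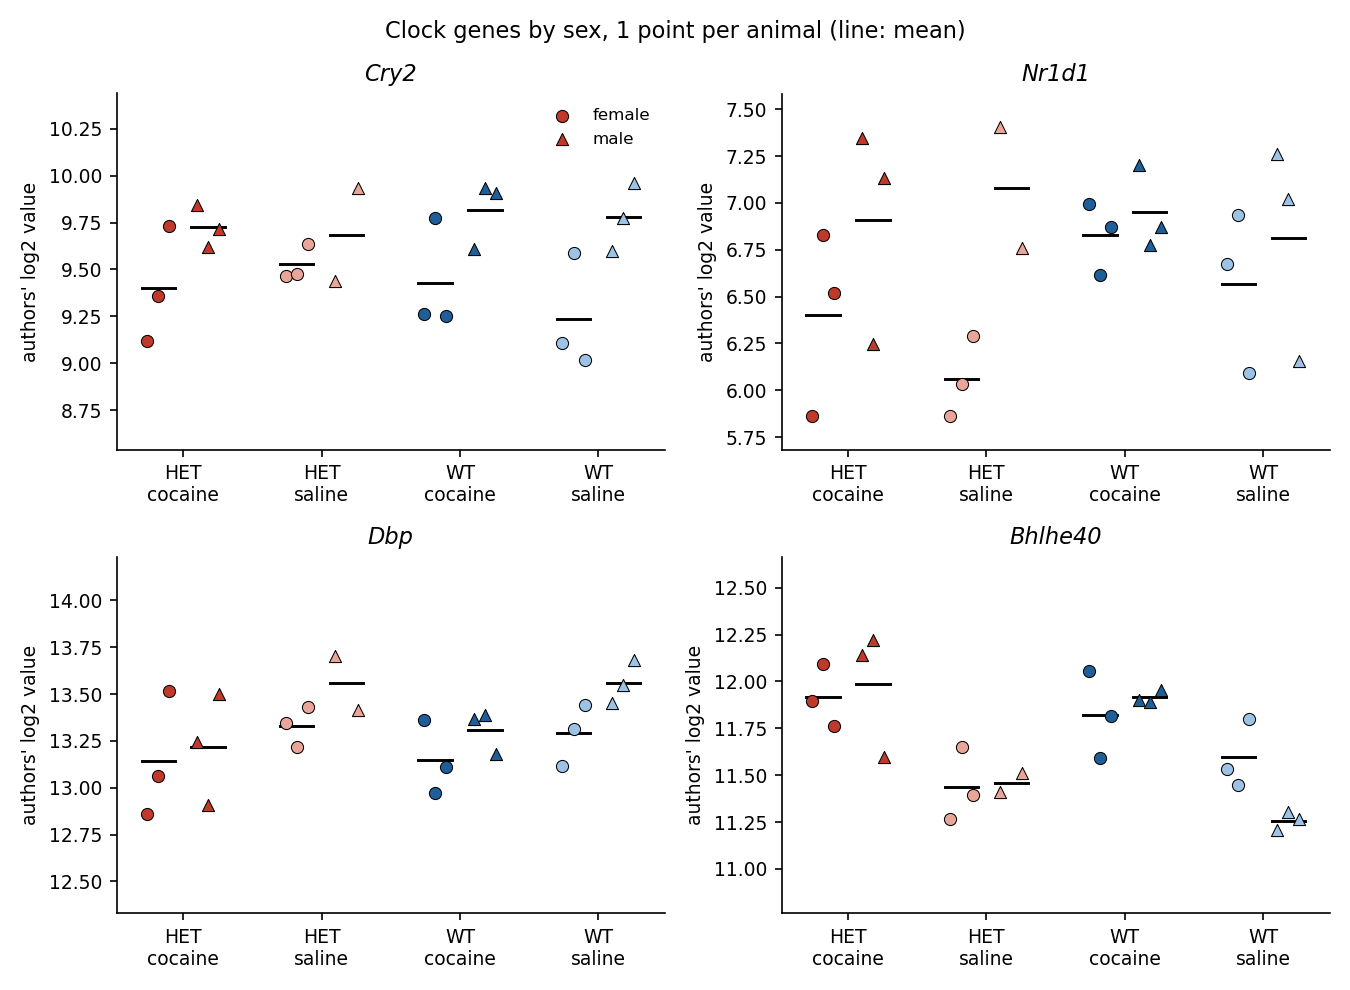
Authors' log2 values (y axes) of Cry2, Nr1d1, Dbp and Bhlhe40 for each animal, by group (x axis), with females as circles left of males as triangles and lines at the means. Cry2 means are lower in females in all 4 groups, and the 3 females lie below the 3 males in WT saline animals (9.59 at most against 9.60 at least). Females also lie below all males for Dbp in WT saline and Nr1d1 in HET saline animals, and above all males for Bhlhe40 in WT saline animals.

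Pairs of clock genes were compared among animals of a group. Of 36 pairs, with group means removed over 23 arrays, 19 correlations were positive and the median r was 0.01. Per1 and Per3 correlated most, with r = 0.51 (permutation p = 0.00708, adjusted over 36 pairs 0.255) and rho = 0.52 (permutation p = 0.0151, adjusted 0.543), and r was 0.45 without the 2 arrays farthest from the median of Per1. No pair passed the adjustment. Among 18 correlations of the clock genes with the 2 marker scores, 0 passed. Dbp and the striatal score gave r = 0.66 (permutation p = 0.0114, adjusted 0.206) and rho = 0.57 (permutation p = 0.0280, adjusted 0.503), with r = 0.51 without the 2 arrays farthest from the median of the score.

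The 3 genes most like each clock gene in these deviations, among 10129 others, were given by Pearson's r over 23 arrays, as a description of arrays that share their preparation. For Per1 they were Polg (0.857), Golgb1 (0.839) and Epas1 (0.836). For Bhlhe40 they were Wnt10a (0.792), Il34 (0.718) and Stard8 (0.706). For Dbp they were Clip4 (0.833), Nrarp (0.791) and Rap1gap (0.789). For Cry2 they were Zfp592 (0.813), Rps15 (0.784) and Rundc3a (0.782). The first of each for the others were Cdan1 for Per2 (0.851), Dlg4 for Per3 (0.80), Prkag2 for Clock (0.689), Ccdc85b for Nr1d1 (0.813) and Cisd1 for Nr1d2 (0.748). No clock gene of the list was among the 3 most like another, since the measured clock genes were left out of that search.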

How the data were processed

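RNA of the 23 animals was hybridised to Illumina MouseWG-6 v2 arrays, per the labels' protocols. The deposited table holds a probe intensity, non-normalized per the file headers, and a detection p-value beside it. Between 24.9% and 30.3% of intensities per array are below 0, so the authors deposited them after subtraction of a background. The authors' processed table was read from its deposited values to be in log2 units and covers 9274 genes. Columns of the intensity table name group and array number but not the animal, so sex was tested in the authors' values. The order of the columns and their values do match the samples, but the fits of the intensities did not use this match.

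The neqc function (limma 3.58.1, offset 16, R 4.3.3) corrected the background of the intensities and set their quantiles equal. Probes detected at p under 0.01 on at least 5 arrays were fitted with a linear model of 4 groups (19 residual degrees of freedom) with two-sided moderated tests, and each gene was represented by its brightest tested probe. The fit was tested on simulated data. The p-values were adjusted over all 18509 probes, 2645 of them without a single gene, and genes with an adjusted p under 0.05 were called. Pair correlations used 100000 permutations within groups. Replicate numbers were not taken to pair samples in the main fit, and a fit with them as a block is given below. Same-numbered samples of different groups correlated with r of -0.258 to 0.425, and 13 of 33 exceeded 0.1. Samples with other numbers gave -0.394 to 0.354, and 32 of 165 exceeded 0.1. Same-numbered samples were thus somewhat more alike. By the labels they share their sex, apart from replicate 3 of HET saline, a female. By the match of order they likewise share the early or late array numbers. What makes them alike was not tested.

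The genes named are all members, the called genes of the list of other clock genes (or the 3 with the smallest p), up to 3 called genes of the immediate-early and glucocorticoid lists, the 3 genes most like each member, and Foxp2. Arntl, Npas2, Tef, Id2, Usp2, Fbxw7, Fkbp5, Sgk1, Tsc22d3 and Kl were named after their values were seen. Members and lists were chosen with earlier results of these data known. Promoters came from RefSeq (GRCm38.p6), with windows for 8 of 10 genes. Alternatives changed the normalization, filter, model, covariates and arrays.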

Additional observations from a re-analysis of the deposited data

How the results depend on the processing

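The count of 2 clock genes called for cocaine averaged over genotypes was the same under every alternative run that changed the normalization, offset, filter, array weights, moderation or block, and in all 23 fits that left out 1 array. There Per1 lay between 0.36 and 0.45 and Bhlhe40 between 0.44 and 0.51 (log2). The count was 0 with the excitatory score, 0 with the striatal score, 0 with the excitatory score and runs of 6 array numbers as a block (added after seeing the data), and 1 without HET cocaine arrays 9, 16 and 19. All genes called then numbered 8, 5, 4 and 49, against 451. In HET mice the count of 1, Bhlhe40 at 0.50, became 0 without a filter on detection and with the 2 HET groups alone, where the change was still 0.50 (adjusted p = 0.0539 and 0.0989). It also became 0 with either score, without those 3 arrays, and with runs and excitatory score together, where the change was 0.26 to 0.38, and it ranged from 0 to 1 over the fits that left out 1 array. For females against males the count of 1 became 0 in cocaine animals alone, in saline animals alone and with either score, where Cry2 differed by -0.36, -0.37, -0.36 (excitatory) and -0.33 (striatal), against -0.36 in all animals, and it ranged from 0 to 1 when 1 animal was left out. The cause of these changes was not tested. Fits of cocaine animals alone, saline animals alone or the HET groups alone hold fewer samples than the main fits. Those with a score or without a filter on detection hold the same number. Of 63 member values, 30 changed sign in at least 1 setting, and 0 of these were called.

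With the replicate number as a block in the authors' values, Per1 differed by 0.41 (adjusted p = 0.0164) and Bhlhe40 by 0.47 (adjusted p = 0.00489), and the block changed no call of a clock gene. Same-numbered samples had a median correlation of 0.08, against -0.02 for samples with other numbers, and 7 of 23 samples matched best with their own number in another group.

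The group sizes limit the intervals, and the cell makeup of each punch was not measured apart from the marker genes.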
